A study of Mus musculus with 8 samples.

Results

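The vascular endothelial growth factor (VEGF) ligands and receptors were examined as a gene family in bone marrow-derived macrophages (BMDMs) with and without gasdermin D. The family comprised 9 of the 54532 genes listed in the deposited count table and was taken by gene symbol. Its ligands were Vegfa, Vegfb, Vegfc and Pgf, its kinase receptors were Flt1, Kdr and Flt4, and its co-receptors were the neuropilins Nrp1 and Nrp2. Each symbol matched 1 row of the table.

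BMDMs are macrophages grown from bone marrow cells in medium with macrophage colony-stimulating factor (M-CSF). RNA was sequenced after 6 days of differentiation, with no treatment, in 4 libraries labelled wildtype (WT) and 4 labelled Gsdmd-/-. The bone marrow came from female C57BL/6J mice, 6 to 8 weeks old, the only strain and age given for BMDMs. WT mice were bought from a supplier, whereas the Gsdmd-/- line was a gift kept in a university facility. Genotype therefore cannot be told apart from the source of the mice. Nothing in the sources used here says whether the libraries of a genotype came from separate mice, so p-values measure the spread between these libraries, which may be technical.

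VEGF-A binds the receptor tyrosine kinases VEGFR1 (encoded by Flt1) and VEGFR2 (Kdr), and is the main ligand that drives the growth of blood vessels. Placental growth factor (Pgf) and VEGF-B bind VEGFR1 but not VEGFR2, while VEGF-C acts mainly through VEGFR3 (Flt4) in lymphatic vessels. VEGFR1 binds VEGF-A tightly but signals weakly, and on monocytes and macrophages it serves as a receptor for migration. Neuropilins bind VEGF and class 3 semaphorins and work beside the kinase receptors or plexins.

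The starts of Vegfa, Flt1 and Kdr are shown because Vegfa and Flt1 separated the genotypes and Kdr had the widest spread in WT relative to its mean among the 8 members with enough counts to be tested. Each line holds the 250 bases before the start of the gene in RefSeq (build GRCm38.p6), on the strand of the gene, 5′ to 3′. Capitals mark matches on either strand to 4 motifs, which were ACGTG (hypoxia response element), TGANTCA (AP-1), GGGCGG (Sp1 box) and GCGNGGGCG (the site of EGR factors, which can overlap an Sp1 box). Windows of this length were searched at 32851 RefSeq starts, and the motifs were found in 16.6%, 6.75%, 32.7% and 4.70% of them, respectively.
Vegfa, chr17:46032378-46032627, minus strand: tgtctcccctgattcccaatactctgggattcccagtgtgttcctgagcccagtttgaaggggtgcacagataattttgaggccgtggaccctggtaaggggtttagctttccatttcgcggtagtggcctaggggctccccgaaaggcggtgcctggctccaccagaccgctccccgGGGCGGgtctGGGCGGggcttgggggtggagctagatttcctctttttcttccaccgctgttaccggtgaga
Flt1, chr5:147726012-147726261, minus strand: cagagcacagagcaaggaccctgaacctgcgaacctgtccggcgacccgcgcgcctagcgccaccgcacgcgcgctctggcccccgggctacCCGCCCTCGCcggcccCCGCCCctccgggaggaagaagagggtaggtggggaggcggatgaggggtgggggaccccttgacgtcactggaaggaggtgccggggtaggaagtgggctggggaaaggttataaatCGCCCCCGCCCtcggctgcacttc
Kdr, chr5:75978456-75978705, minus strand: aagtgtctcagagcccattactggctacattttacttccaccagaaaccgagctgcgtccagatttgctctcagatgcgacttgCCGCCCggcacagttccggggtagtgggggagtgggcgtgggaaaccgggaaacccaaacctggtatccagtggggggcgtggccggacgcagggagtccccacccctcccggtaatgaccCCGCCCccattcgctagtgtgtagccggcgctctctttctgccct

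The window of Vegfa held 2 Sp1 boxes, at 72 and 62 bases before the start, and none of the other motifs. That of Flt1 held 3 Sp1 boxes and 2 EGR matches, the latter at 157 and 24 bases before the start, where each overlapped an Sp1 box. That of Kdr held 2 Sp1 boxes, at 166 and 45 bases. None of the 3 windows matched the hypoxia response element or AP-1. A second RefSeq start of Vegfa (window chr17:46025164-46025413) had 1 match to the hypoxia response element, 211 bases before it. This second window lies inside the Vegfa gene. Sites more than 250 bases before a start were not searched. A match is a description of letters and not a site shown to be bound.

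Total counts lay between 14935114 and 16794810 per library. Levels are in CPM, counts scaled to library size with TMM factors. A count of 0 allows up to 3 counts, or 0.177 to 0.199 CPM depending on the library, by counting error only. Gsdmd itself averaged 75.3 ± 14.1 CPM over WT and 16.2 ± 1.56 CPM over Gsdmd-/- libraries (SD, n = 4 each), without overlap. All 10 macrophage markers were detected, with Csf1r, the M-CSF receptor gene, at 1129 ± 194 CPM over WT libraries and 1017 ± 69.3 CPM over Gsdmd-/- libraries (SD, n = 4 each). Their summed level was between 15922 and 24246 CPM in WT and between 20039 and 24105 CPM in Gsdmd-/- libraries. In the first principal component of all genes tested, which held 43.6% of the variance, WT 2 and WT 3 (scores of 45.4 and 38.8) stood apart from the other 6 libraries (-25.9 to -7.19). Values without this pair are given beside the results of members that they moved most.

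The family spanned a wide range of levels in macrophages of both genotypes. On the scale of CPM per kilobase of exon, which allows genes to be compared, Nrp2 was highest in WT at 57.1 ± 7.20, followed by Nrp1 at 35.6 ± 2.38 and Vegfb at 17.7 ± 1.59 (SD, n = 4 each). Pgf (6.16 ± 2.05) and Kdr (4.57 ± 2.47) came next in WT, and their libraries overlapped. Vegfa (1.40 ± 0.422) and Flt1 (1.10 ± 0.131) also overlapped in WT, and Flt4 was at 0.135 ± 0.0238 CPM per kilobase. All other neighbours in this order were apart in every library. Without WT 2 and WT 3, Vegfa (1.605 and 1.89) and Flt1 (0.951 and 1.05 CPM per kilobase) were apart in WT as well, while Pgf and Kdr still overlapped.

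In Gsdmd-/- libraries the top of the order was Nrp2 (47.3 ± 5.15), Nrp1 (32.3 ± 2.18) and Vegfb (20.97 ± 2.52 CPM per kilobase, SD, n = 4 each). Kdr (7.03 ± 1.76) stood above Pgf (4.06 ± 0.669), without overlap. Pgf overlapped with Vegfa (2.91 ± 0.777), and Vegfa was apart from Flt1 (0.669 ± 0.104), 4.35-fold above it where the ratio of their means in WT was 1.27. Gene counts do not separate isoforms, so the soluble form of VEGFR1, which acts as a trap for VEGF-A, is counted with the membrane form. The exon length used for this scale joins the exons of all transcripts of a gene.

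**Figure D1:**
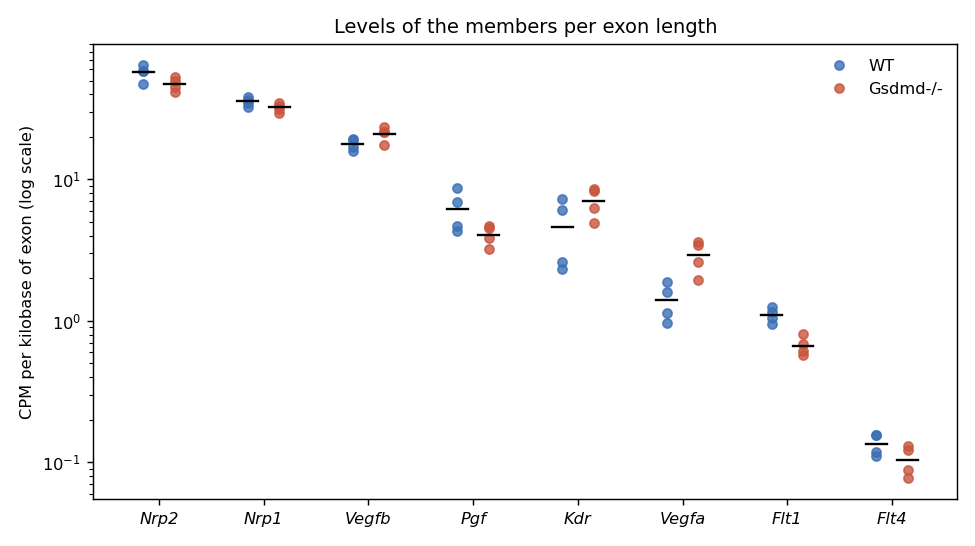
Level of each member in CPM per kilobase of exon (log axis) in the 4 WT (blue) and 4 Gsdmd-/- (red) libraries, with a black line at the mean. Nrp2, Nrp1 and Vegfb were the 3 highest members in both genotypes, and Vegfa and Flt1 overlapped in WT, through WT 2 and WT 3, but not in Gsdmd-/- libraries; Vegfc, with 4 counts in all, is not drawn.

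The comparison of Gsdmd-/- with WT asked how the transcripts of this family differ in macrophages that lack gasdermin D. Of the 9 members, 8 had enough counts to be tested. The members were chosen with earlier results of these data known, so shares of all genes set beside them are descriptions. None had a Benjamini-Hochberg adjusted p under 0.05 in the edgeR quasi-likelihood test over 12911 genes (two-sided), where 0.349% of all genes did (0.139% higher and 0.209% lower in Gsdmd-/- libraries). At an unadjusted p under 0.05, 4 members (Vegfa, Flt1, Pgf and Nrp2) were counted, and 12.0% of all genes. Limma voom gave 0 members with an adjusted p under 0.05, where 0.333% of all genes passed. DESeq2 and the edgeR exact test gave 2 each, Vegfa and Flt1, but they also called more of all genes, 2.26% and 1.91%.

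A fold cutoff was set at an unadjusted p under 0.05 with a log2 fold change of 0.5 or more in size. By this cutoff Vegfa was higher in Gsdmd-/- libraries, where 1.54% of all genes were. Flt1 and Pgf were lower at the same cutoff, which 3.28% of all genes met in this direction. The libraries of both genotypes did not overlap for Vegfa and Flt1, 2 of the 8 members tested, against 7.60% of all genes (3.48% with Gsdmd-/- higher, as for Vegfa, and 4.12% with Gsdmd-/- lower, as for Flt1). In sign, 3 members lay above 0 and 5 below. Their median log2 fold change was -0.21, and that of all genes tested -0.01.

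**Figure D2:**
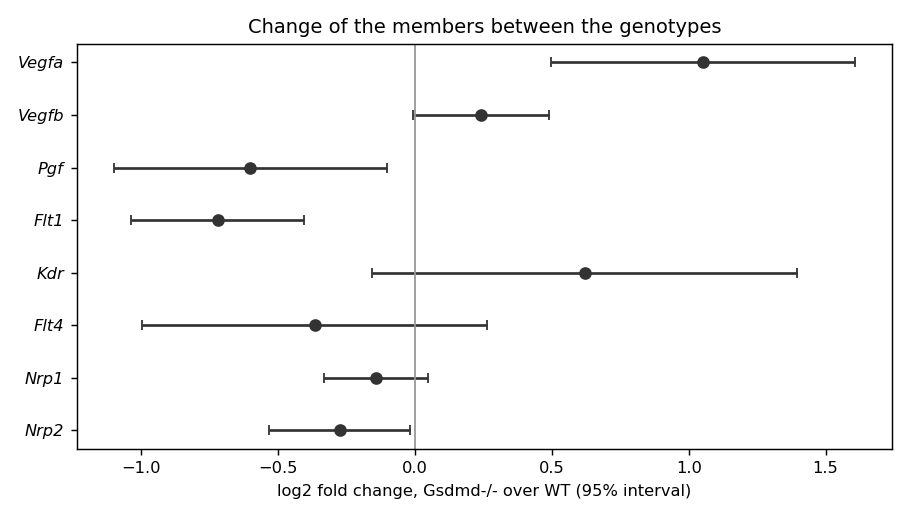
Log2 fold change of the 8 members tested (Gsdmd-/- over WT, x axis) from the edgeR quasi-likelihood fit, with 95% intervals. The intervals of Vegfa, Pgf, Flt1 and Nrp2 exclude 0 and those of Vegfb, Kdr, Flt4 and Nrp1 include it; these intervals are not adjusted for the number of genes tested.

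Among the ligands, Vegfa (ENSMUSG00000023951, chromosome 17 from 46016993 to 46032369 in GRCm38, as for all positions of genes here) had 133, 80, 68 and 113 counts in WT libraries 1 to 4. In Gsdmd-/- libraries 1 to 4 it had 262, 250, 132 and 168 counts. Its level was 8.09, 4.89, 4.15 and 6.88 CPM in the WT and 15.5, 14.8, 8.37 and 11.1 CPM in Gsdmd-/- libraries. Every Gsdmd-/- library was thus above every WT library, but Gsdmd-/- 3 exceeded WT 1 only narrowly. The mean in Gsdmd-/- libraries was 207% of that in WT. The log2 fold change was 1.05 (standard error 0.250, 95% interval 0.50 to 1.61), and it missed the threshold after adjustment (edgeR quasi-likelihood test, adjusted p = 0.132).

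The lowest Vegfa levels in WT were those of WT 2 and WT 3. Without this pair the log2 fold change was 0.73 (adjusted p = 0.224 in the edgeR quasi-likelihood fit), and the genotypes still did not overlap, as was then the case for 22.7% of all genes. With any 1 library left out it lay between 0.91 and 1.23.

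Pgf (ENSMUSG00000004791, chromosome 12 from 85166635 to 85177790) was at 20.1, 12.6, 13.6 and 25.3 CPM in WT libraries 1 to 4. It was at 13.5, 11.2, 13.1 and 9.29 CPM in Gsdmd-/- libraries 1 to 4. The high values were those of WT 1 and WT 4, whereas WT 2 lay within the Gsdmd-/- range and WT 3 barely above it, so that the genotypes overlapped. The mean of Pgf was 17.9 ± 5.95 CPM in WT and 11.8 ± 1.94 CPM without gasdermin D (SD, n = 4 each). Its log2 fold change was -0.60 (standard error 0.225, edgeR adjusted p = 0.333). Without WT 2 and WT 3 the log2 fold change was -0.94 (edgeR adjusted p = 0.0285, where 1.21% of all genes were under 0.05). The genotypes were then apart, as they were for 22.7% of all genes. Without WT 4 alone the log2 fold change was -0.38. The level of Pgf also left the fold cutoff without WT 1, WT 4 or Gsdmd-/- 4, so that its calls depended on which libraries of either genotype were counted.

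Vegfb (ENSMUSG00000024962, chromosome 19 from 6982473 to 6987651) was the most abundant ligand. It was at 30.8, 30.4, 25.6 and 27.0 CPM in the WT and at 34.5, 37.4, 34.8 and 27.9 CPM in the Gsdmd-/- libraries. Gsdmd-/- 4 lay within the WT range and the other 3 Gsdmd-/- libraries above it. The log2 fold change was 0.24 (standard error 0.112, 95% interval -0.01 to 0.49, edgeR adjusted p = 0.430).

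Vegfc (ENSMUSG00000031520, chromosome 8 from 54077606 to 54187096) was at the limit of detection. It had 0, 0, 1 and 1 counts in WT and 2, 0, 0 and 0 counts in Gsdmd-/- libraries, and was too low for the test (exact permutation test of mean CPM, two-sided, p = 1). No difference in Vegfc was detectable at this depth. Vegfd, the remaining ligand that binds VEGFR3, was as scarce, with 5 counts over all WT libraries against 4, and went untested.

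The make-up of the ligand transcripts was described from the levels per kilobase. In WT, Vegfb made up 70.5% ± 6.78, Pgf 24.0% ± 6.05 and Vegfa 5.45% ± 1.07 of the sum over the 4 ligands (SD, n = 4). In Gsdmd-/- libraries the shares were 75.0% ± 2.14 for Vegfb, 14.5% ± 1.604 for Pgf and 10.4% ± 2.34 for Vegfa (SD, n = 4). For Pgf the share was between 17.7% and 32.0% in WT and between 12.6% and 16.1% in Gsdmd-/- libraries. For Vegfa it was between 4.49% and 6.74% in WT and between 6.95% and 12.2% in Gsdmd-/- libraries. The shares of Pgf and Vegfa therefore did not overlap between the genotypes, with or without WT 2 and WT 3. Those of Vegfb overlapped, but not without this pair, when the WT mean was 65.2%. Shares of 1 sum depend on each other and were given no test.

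**Figure D3:**
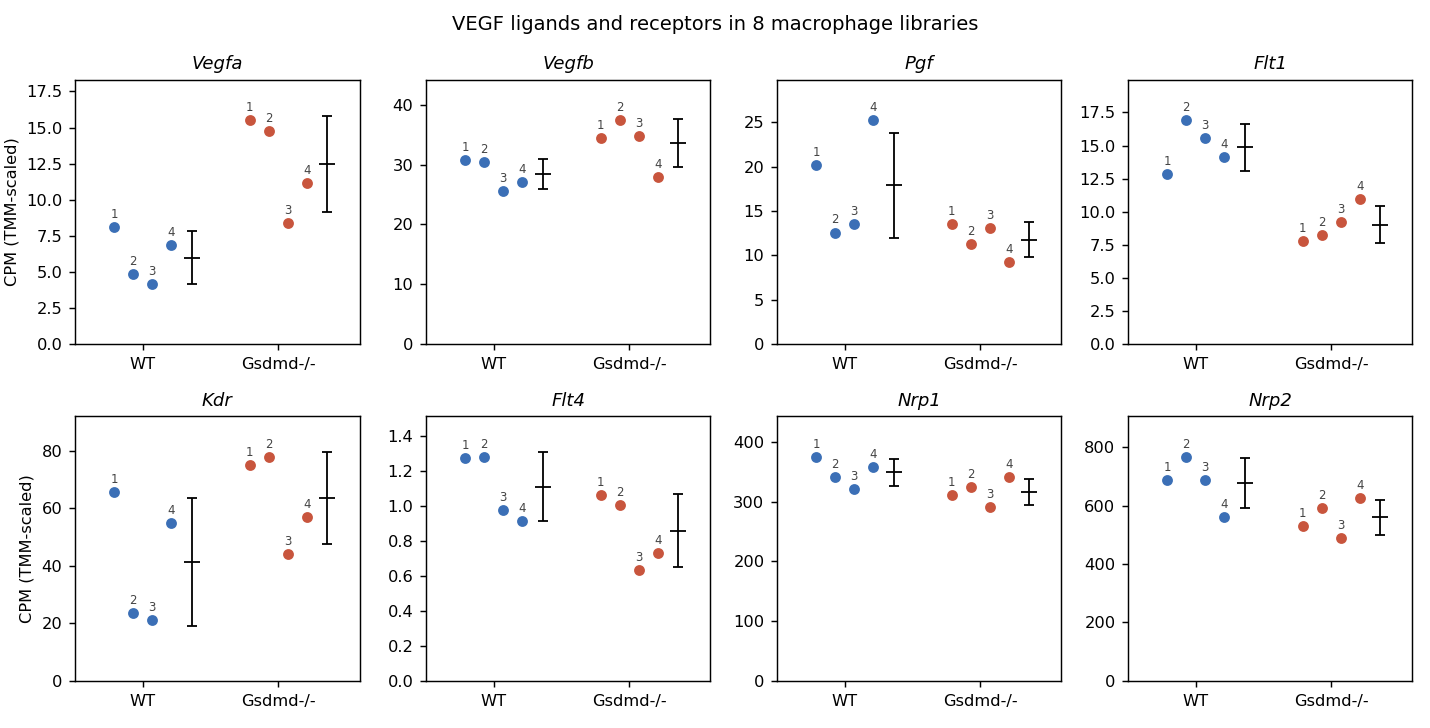
CPM of the 8 members tested in each library (points, numbered by replicate, blue for WT and red for Gsdmd-/-), with the mean and SD of 4 libraries in black; each panel has its own axis from 0. The genotypes are apart for Vegfa and Flt1, and WT 2 and WT 3 lie low for Kdr.

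Among the kinase receptors, Flt1 (ENSMUSG00000029648, chromosome 5 from 147561604 to 147726011) had 211, 277, 255 and 232 counts in WT libraries 1 to 4 and 131, 139, 145 and 165 counts in Gsdmd-/- libraries 1 to 4. Its level was 12.8, 16.9, 15.6 and 14.1 CPM in WT and 7.76, 8.22, 9.20 and 10.9 CPM in Gsdmd-/- libraries. All Gsdmd-/- libraries lay below all WT libraries, and the mean was 60.8% of that in WT. The log2 fold change was -0.72 (standard error 0.142, 95% interval -1.04 to -0.40), the lowest p of the members, but above the threshold after adjustment (edgeR quasi-likelihood test, adjusted p = 0.0805). The highest levels of Flt1 were in WT 2 and WT 3. Without them the log2 fold change was -0.58 (edgeR adjusted p = 0.128). The genotypes still did not overlap, as was then the case for 22.7% of all genes.

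Flt1 is also an endothelial gene, so endothelial markers were examined beside it. Of 14 such markers, 5 were tested. Cdh5 (VE-cadherin) and Esam were lower in Gsdmd-/- libraries at the fold cutoff, as were 3.28% of all genes. Tek, Cldn5 and Sox17 had 0 counts in all libraries, and Pecam1 was nearly absent, with 29 counts over all WT libraries against 17. The summed level of the 14 markers was between 132 and 329 CPM in WT and between 148 and 203 CPM in Gsdmd-/- libraries. Esam had 6, 96, 81 and 6 counts in WT libraries 1 to 4 and between 6 and 14 counts in each Gsdmd-/- library. Tie1 had 2, 31, 30 and 3 counts in WT and between 7 and 10 counts in each Gsdmd-/- library. Vwf and Eng, which carried most of the sum, were highest in the same libraries, Vwf at 238 and 201 CPM in WT 2 and WT 3 and at most 131 CPM in the others, and Eng at 77.4 and 77.9 CPM and at most 67.1 CPM. Cdh5 did not follow, with 3.71, 5.38, 5.86 and 5.78 CPM in WT libraries 1 to 4. Among the untested markers, Pecam1 followed (2, 9, 14 and 4 counts in WT libraries 1 to 4). Egfl7 (8, 2, 6 and 1 counts) and Plvap (4, 5, 0 and 3 counts) did not. WT 2 and WT 3 were the highest WT pair for 4 of the 5 markers tested and for Flt1, and also for 29.4% of all genes tested. Leaving out these libraries turned the log2 fold change of Esam from -2.001 to 0.95 and that of Tie1 from -0.80 to 1.86, and took that of Vwf from -0.52 to 0.18 and that of Eng from -0.01 to 0.39. That of Cdh5 went from -0.51 to -0.38. The part of such cells in the level of Flt1 was not tested. In bulk RNA, fewer cells of a type and less RNA per cell cannot be told apart.

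Kdr (ENSMUSG00000062960, chromosome 5 from 75932827 to 75978458) had the most transcripts of the 3 kinase receptors. It was at 65.6, 23.6, 21.1 and 54.8 CPM in WT libraries 1 to 4 and at 75.1, 77.8, 44.1 and 56.9 CPM in Gsdmd-/- libraries 1 to 4. WT 2 and WT 3 were below all other libraries, while WT 1 and WT 4 lay among the Gsdmd-/- libraries. The mean was 41.3 ± 22.3 CPM over WT libraries and 63.5 ± 15.9 CPM over Gsdmd-/- libraries (SD, n = 4 each). The log2 fold change of 0.62 had a wide 95% interval, from -0.15 to 1.40 (edgeR adjusted p = 0.535). Without WT 2 and WT 3 it was 0.07 (edgeR adjusted p = 0.938), without WT 3 alone 0.40 and without WT 1 alone 0.94. Of the 5 endothelial markers tested, Vwf, Eng, Esam and Tie1 were highest in the libraries where Kdr was lowest and Cdh5 was not. WT 2 and WT 3 were the highest WT pair for 29.4% of all genes tested and the lowest for 28.7%. The part of endothelial cells in the level of Kdr was not tested.

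Flt4 (ENSMUSG00000020357, chromosome 11 from 49609263 to 49652739) had few counts, 21, 21, 16 and 15 in WT and 18, 17, 10 and 11 in Gsdmd-/- libraries. Its log2 fold change was -0.37 (standard error 0.283, 95% interval -0.99 to 0.26, edgeR adjusted p = 0.664), with overlap. Of the lymphatic markers, Prox1 had 6, 30, 24 and 2 counts in WT libraries 1 to 4 and between 5 and 10 in each Gsdmd-/- library. Pdpn, the only one of these markers with enough counts to be tested, was at 313 ± 27.5 CPM in WT and 362 ± 18.5 CPM without gasdermin D (SD, n = 4 each), with overlap (log2 fold change 0.21, edgeR adjusted p = 0.376). Lyve1 had 13 counts over all 8 libraries, and Ccl21a was at 0. The part of such cells in the level of Flt4 was not tested.

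As a share of the kinase receptor transcripts, per kilobase, Kdr made up 75.1% ± 11.9 over WT libraries and 89.6% ± 2.998 over Gsdmd-/- libraries (SD, n = 4 each). Flt1 made up 22.2% ± 10.8 over WT libraries and 9.05% ± 3.03 over Gsdmd-/- libraries (SD, n = 4 each). Flt4 made up the rest, 2.64% ± 1.12 and 1.33% ± 0.0865, without overlap. The margin was narrow, as its lowest WT share was 1.53% and its highest Gsdmd-/- share 1.44%. These shares rest on 10 to 21 counts of Flt4 per library, and its CPM overlapped. The genotypes overlapped for Kdr and Flt1, since the share of Flt1 ran from 11.4% to 32.0% in WT and from 6.37% to 12.1% in Gsdmd-/- libraries. The WT means rested on WT 2 and WT 3, and without them were 12.9% for Flt1, 85.4% for Kdr and 1.69% for Flt4. Flt4 then still did not overlap between the genotypes, by the same narrow margin.

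Vegfa and Kdr ranked the WT libraries alike, with WT 1 highest, then WT 4, WT 2 and WT 3. In Gsdmd-/- libraries, both were highest in libraries 1 and 2 and lowest in library 3. Flt1 ranked the WT libraries in the reverse order except that WT 2 was above WT 3. Among the 8 members tested, WT 2 and WT 3 were the lowest WT pair for 4 (Vegfa, Pgf, Kdr and Nrp1) and the highest WT pair for 2 (Flt1 and Nrp2). Over all genes tested, this pair was the lowest for 28.7% and the highest for 29.4%.

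**Figure D4:**
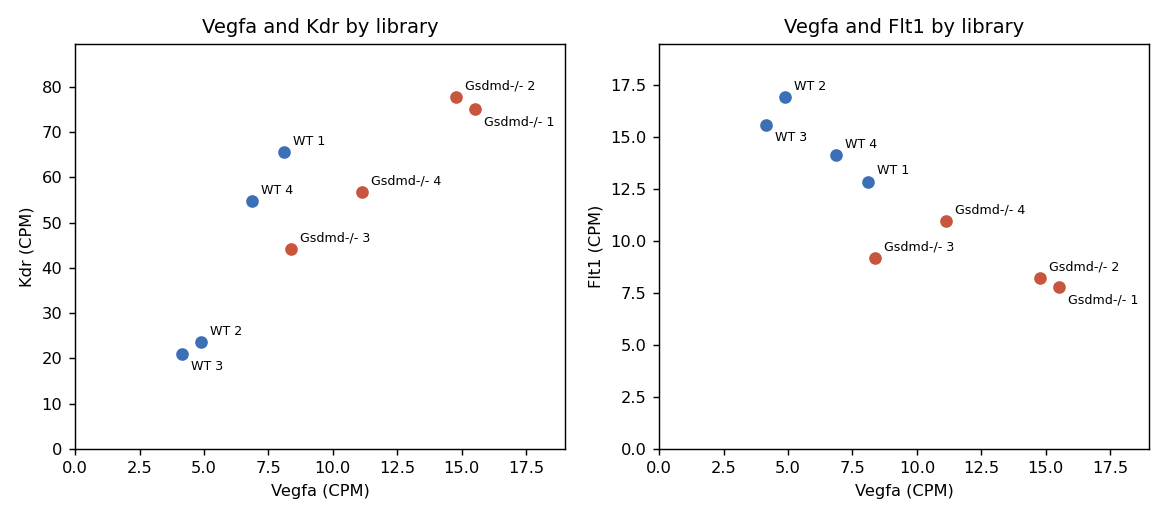
Level of Kdr (left) and Flt1 (right) against Vegfa, all in CPM, for the 8 libraries (blue for WT, red for Gsdmd-/-). WT 2 and WT 3 hold the lowest Vegfa and Kdr and the highest Flt1, and Gsdmd-/- 1 and 2 hold the highest Vegfa and Kdr and the lowest Flt1.

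The neuropilins were the most abundant members. Nrp1 (ENSMUSG00000025810, chromosome 8 from 128358604 to 128503363), which binds VEGF-A and semaphorin 3A, was at 375, 342, 320 and 358 CPM in WT libraries 1 to 4. It was at 310, 324, 290 and 341 CPM in Gsdmd-/- libraries 1 to 4. The genotypes overlapped, and the log2 fold change was -0.14 (standard error 0.0850, 95% interval -0.33 to 0.05, edgeR adjusted p = 0.562). Without WT 2 and WT 3 the log2 fold change was -0.22, and the genotypes did not overlap, as was then the case for 22.7% of all genes. The microRNA gene Mir1903 lies in an exon of Nrp1 and had 0 counts.

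Nrp2 (ENSMUSG00000025969, chromosome 1 from 62703285 to 62818695), which binds VEGF-C and semaphorin 3F, was at 687, 767, 689 and 561 CPM in the WT and 530, 592, 491 and 627 CPM in the Gsdmd-/- libraries. WT 4 lay within the Gsdmd-/- range. The log2 fold change was -0.27 (standard error 0.116, 95% interval -0.53 to -0.02, edgeR adjusted p = 0.388), and -0.16 without WT 2 and WT 3. Of the summed neuropilin transcripts, Nrp2 made up 61.4% ± 3.90 over WT libraries and 59.3% ± 1.08 over Gsdmd-/- libraries (SD, n = 4 each), and the ranges overlapped. Inside the Nrp2 gene lie Gm29083, on the opposite strand with 2 and 5 counts over the WT and Gsdmd-/- libraries, and Gm37121, on the same strand with 58 and 76 counts. Neither shares exon bases with Nrp2, and both had few counts beside those of Nrp2.

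Genes whose level over the 8 libraries was most like that of a member were picked by Pearson's r of log2 CPM, out of 12036 others with a mean of at least 1 CPM. These values are descriptions, and WT 2 and WT 3, which stood apart, are among the 8 points of each. For Vegfa the closest were Gm37120 (r = 0.989), Igsf6 (0.983) and Rps6ka2 (0.978), the last encoding a kinase downstream of ERK. For Flt1 they were Tbc1d8 (0.985), Top1, the gene of DNA topoisomerase I (0.984), and Gm14221 (0.981). For Kdr they were Cd300lf, an inhibitory receptor of myeloid cells (0.988), Galnt6 (0.987) and Sh3bp5 (0.981). The closest to Nrp2 were Samd4b, Hip1 and Slc35e1 (0.992, 0.991 and 0.990), and to Nrp1 Zmynd8, Exoc7 and Larp1 (0.981, 0.977 and 0.974). For Pgf (Spout1, Mtx1 and Abi3) the values ran from 0.952 to 0.957, and for Vegfb (Trmt10b, Eif5a2 and Gm26512) from 0.948 to 0.974. Of these genes, Gm14221 had an adjusted p under 0.05 between the genotypes (log2 fold change -1.28, edgeR adjusted p = 0.0386).

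Genes that act around the family were taken from 7 hand-written lists with 163 genes, of which 124 were tested. The lists were written with earlier results of these data known. A share above that of all genes can therefore come from the choice of genes, and the shares are descriptions. Over all lists, 4 genes were higher in Gsdmd-/- libraries with an adjusted p under 0.05 in the edgeR quasi-likelihood test and 0 were lower, where 0.139% of all genes were higher and 0.209% lower. At an unadjusted p under 0.05 there were 26 of the 124 genes, beside 12.0% of all genes. Lower genes with an adjusted p under 0.05 numbered 0 with limma voom and 2 with DESeq2 or the edgeR exact test, which called 0.194%, 1.45% and 1.19% of all genes lower, so that these counts lay near the background. At the fold cutoff 8 were higher and 5 lower, together 10.5% of the genes tested against 4.83% of all genes.

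For the intracellular steps of VEGF signaling, 55 genes were listed, from phospholipase C gamma to the MAP kinases, PI3 kinase, AKT and calcineurin, and 50 were tested. At the fold cutoff 0 were higher and 1 was lower, 2% of those tested against 4.83% of all genes. That gene was Nfatc2, a transcription factor activated by calcineurin, with 29.7 ± 7.31 CPM over WT libraries and 20.6 ± 2.59 CPM over Gsdmd-/- libraries (SD, n = 4 each, log2 fold change -0.52, edgeR adjusted p = 0.265, and -0.35 without WT 1). The median log2 fold change of the 50 genes was -0.04.

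Factors known to act on transcription or decay of Vegfa RNA held all 4 genes that passed. Of 19 listed, 18 were tested. Over all genes, 0.139% were higher with an adjusted p under 0.05. Egr1, an immediate-early transcription factor, rose from 4.80 ± 3.13 to 57.9 ± 21.2 CPM, and Fos, an AP-1 subunit, from 52.0 ± 7.92 to 114 ± 15.8 CPM (SD, n = 4 each, edgeR adjusted p = 0.00590 for both). Zfp36, whose protein binds AU-rich elements and promotes decay of RNA, rose from 99.2 ± 7.71 to 195 ± 11.7 CPM (SD, n = 4 each, edgeR adjusted p = 8.20e-04). Myc rose from 36.5 ± 2.27 to 52.0 ± 2.85 CPM (SD, n = 4 each, edgeR adjusted p = 0.0361), and its adjusted p was above 0.05 in 8 of 17 alternatives, up to 0.164. Jun, another AP-1 subunit, had 203 ± 43.9 CPM over WT libraries and 135 ± 6.17 CPM over Gsdmd-/- libraries (SD, n = 4 each, edgeR adjusted p = 0.134), and its log2 fold change went from -0.58 to -0.29 without WT 2 and WT 3. These 5 of the 18 genes tested did not overlap between the genotypes, against 7.60% of all genes. By sign the list was split, 8 genes positive and 10 negative, and its median log2 fold change was -0.03.

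Of 22 genes on a hypoxia list, which held hypoxia-responsive genes beside regulators of Vegfa, 18 were tested. At the fold cutoff 1 was lower, the hypoxia-responsive gene Ndrg1, 5.56% of those tested (log2 fold change -0.57, edgeR adjusted p = 0.358). The log2 fold change of Ndrg1 was -0.02 without WT 2 and WT 3. Bnip3, another hypoxia-responsive gene, which was named after its values were seen, had the lowest p of this list and was its only gene without overlap (log2 fold change 0.46, edgeR adjusted p = 0.214), below the fold cutoff. The median of the list was -0.06, taken over genes of both kinds, so it does not describe the regulators of Vegfa alone.

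Genes that process VEGF ligands or release them from the matrix numbered 22, of which 16 were tested. Mmp9, Mmp2 and Sdc1 were higher at the fold cutoff and 0 were lower, 18.8% of those tested against 4.83% of all genes (1.54% higher). Mmp9, a gelatinase, had 0.472 ± 0.235 CPM over WT libraries and 1.11 ± 0.298 CPM over Gsdmd-/- libraries (SD, n = 4 each). It had few counts, 8, 6, 4 and 13 in WT and 17, 18, 13 and 23 in Gsdmd-/- libraries 1 to 4. After scaling its libraries did not overlap, but WT 4 and Gsdmd-/- 3 had the same count (0.791 and 0.825 CPM). The log2 fold change of Mmp9 was 1.21 (edgeR adjusted p = 0.264). Mmp2, another gelatinase, had a log2 fold change of 0.64 (edgeR adjusted p = 0.409), and Sdc1, the heparan sulfate proteoglycan syndecan-1, one of 0.54 (edgeR adjusted p = 0.389). The genotypes overlapped for Mmp2 and Sdc1. The log2 fold changes without WT 2 and WT 3 were 0.78 for Mmp9, 0.36 for Mmp2 and 1.10 for Sdc1, the last with an edgeR adjusted p of 0.00356. Without Gsdmd-/- 1 alone, Mmp2 was at 0.41. The median of this list was 0.05.

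**Figure D5:**
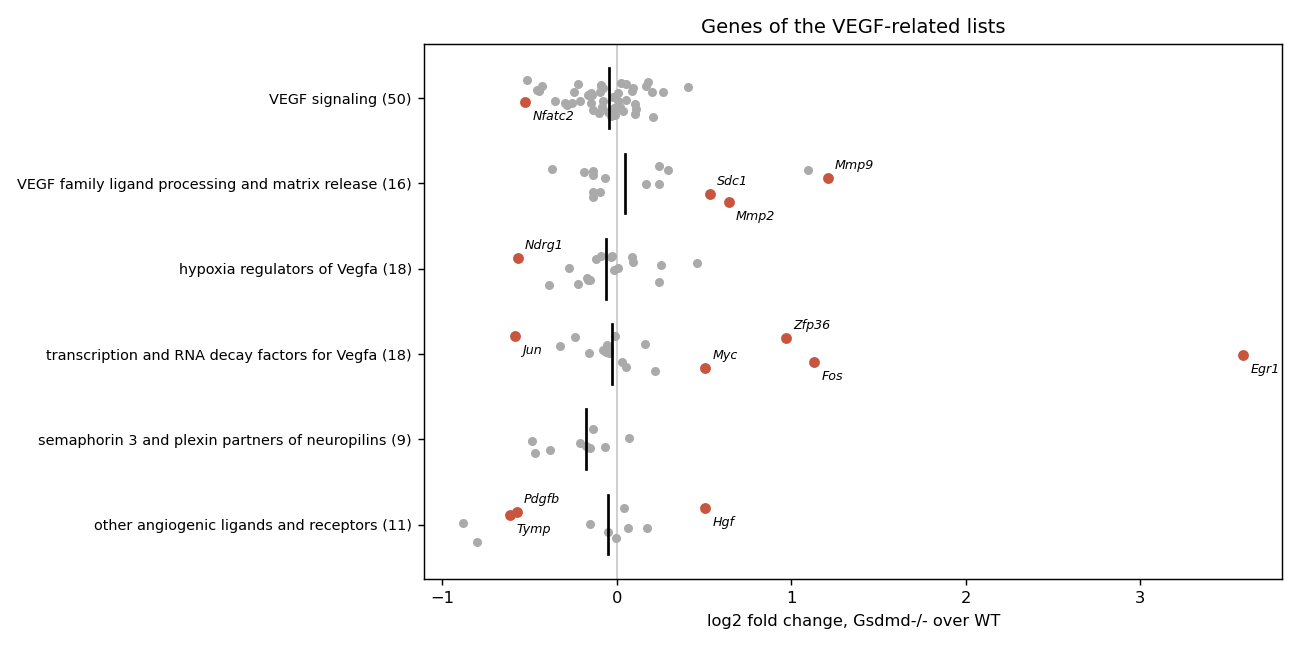
Log2 fold change (Gsdmd-/- over WT, x axis) of the genes tested in the 6 lists with more than 2 genes tested, with the number tested in brackets and a black line at the median; red points with names met the fold cutoff (unadjusted p under 0.05, log2 fold change 0.5 or more in size). Egr1 lies farthest from 0 at 3.59, and the medians lie between -0.18 and 0.05. The hypoxia list holds hypoxia-responsive genes beside regulators of Vegfa.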

How the data were processed

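TruSeq libraries were prepared from total RNA of BMDMs (4 WT and 4 Gsdmd-/-), and a service company sequenced them. The authors deposited 1 table of raw read counts per gene. Genome build mm10 is named in the submitters' processing notes, while the aligner, the counting tool and the annotation are not given in the sources used here. The kit does not mark strand. The label of each column named its sample, and all values were whole numbers. Positions and exon lengths were taken from GENCODE M21 (build GRCm38), in which 54495 of the 54532 identifiers were found, and promoter windows from RefSeq (GRCm38.p6), which held all 9 members.

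Genes with low counts were removed with filterByExpr, TMM factors were applied to the library sizes of the genes kept, and the 12911 genes were compared with the quasi-likelihood test of edgeR 4.0.16 (R 4.3.3), with genotype as the only term. P-values are two-sided and were adjusted by the Benjamini-Hochberg method over all genes tested. The study names limma in its methods and edgeR in a legend, so limma voom (3.58.1) was run as an alternative. The other alternatives were DESeq2 1.42.0, the edgeR exact test, RLE and upper-quartile scaling, no filter, a minimum of 10 counts per library, leaving out each library, leaving out WT 2 and WT 3, and a replicate block. The shares, level order and markers without WT 2 and WT 3 were added after seeing the data. Log2 CPM used a prior count of 2. The reported tests used the deposited counts, and the fits were also checked on simulated counts with known changes. Levels between genes are in CPM per kilobase of exon.

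Genes were named by a rule, which covered all members, list genes at the fold cutoff or with an adjusted p under 0.05 (for a list with none, the 2 with the lowest p), genes that overlap a member, and the 3 genes most like each member with a mean of at least 1 CPM over all libraries (7 of the 9, all but Vegfc and Flt4). Vegfd, Met, Bnip3 and the cell type markers were named beside it. The members and lists were chosen with earlier results of these data known.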

Additional observations from a re-analysis of the deposited data

How the results depend on the processing

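Each of the 8 members tested kept the direction of its log2 fold change under all 17 alternatives. The calls depended on the test and the filter. Vegfa had an adjusted p under 0.05 with DESeq2 (log2 fold change 1.05), with the edgeR exact test (1.05) and without a filter on low counts (1.07). Flt1 did so in the same fits, with log2 fold changes of -0.72, -0.72 and -0.70, so that 2 members passed in each, where 2.26%, 1.91% and 0.430% of all genes did. Over the alternatives the adjusted p ran from 0.00664 to 0.399 for Vegfa and from 0.00105 to 0.318 for Flt1. The cause was not tested.

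Without WT 2 and WT 3 together, Pgf passed with a log2 fold change of -0.94, the only member to do so there. With 2 WT libraries left, 4 members did not overlap between the genotypes, but 22.7% of all genes did not either, against 7.60% with all libraries. Over all genes, 53 were then higher and 108 lower with an adjusted p under 0.05, and 405 were higher and 418 lower at the fold cutoff. Of the list genes, 6 were then higher, among them Sdc1 (1.10), and 1 (Sema4a) lower with an adjusted p under 0.05, and Kit reversed to -0.19.

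Genes with an adjusted p under 0.05, 18 higher and 27 lower in the quasi-likelihood test, numbered 105 and 187 with DESeq2, 92 and 154 with the edgeR exact test, and 44 and 65 without a filter. List genes lower with an adjusted p under 0.05 were 2 with DESeq2 and 2 with the exact test. Without a filter, 421 genes were higher and 783 lower at the fold cutoff, and 2 members, Vegfa and Kdr, were higher.

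With 1 library left out, genes with an adjusted p under 0.05 ranged from 8 to 28 higher and from 5 to 56 lower. At the fold cutoff they ranged from 155 to 318 higher and from 297 to 704 lower, both highest without WT 4. Members at the fold cutoff ranged from 1 to 2 in each direction (2 higher without WT 1, Vegfa and Kdr, and 1 lower without WT 1, WT 4 or Gsdmd-/- 4). List genes at the fold cutoff ranged from 5 to 9 higher and from 1 to 7 lower (5 higher without WT 4 or Gsdmd-/- 2, and 3, 1 and 2 lower without WT 2, WT 3 and Gsdmd-/- 3).

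The labels number the libraries 1 to 4 in both genotypes. Same-numbered libraries did not deviate together (r = 0.0268, 0.182, 0.0412 and -0.201), so the numbers were not taken as pairs. With the replicate number as a block, 9 genes were higher and 16 lower with an adjusted p under 0.05, 2 members were higher and 3 list genes lower at the fold cutoff, and the adjusted p was 0.0835 for Vegfa and 0.167 for Flt1. The block changed no member's call at an adjusted p under 0.05, but it added Kdr (0.74) to Vegfa at the fold cutoff. Depth limits Vegfc, Vegfd and Flt4 most.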

Other observations

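A list of semaphorins, plexins and genes related to them or to the neuropilins was read out too. Of 19 genes listed, 9 were tested, 8 of them with a log2 fold change below 0 and a median of -0.18. At the fold cutoff there were 0, against 4.83% of all genes. No class 3 semaphorin had enough counts to be tested. The genes tested were plexins, class 4 semaphorins and genes of neither family, so they do not describe the class 3 ligands. The 2 with the lowest p were Plxnb2, a receptor of class 4 semaphorins, and Sema4a, a class 4 semaphorin. Plxnb2 averaged 220 ± 28.0 CPM over WT and 159 ± 20.5 CPM over Gsdmd-/- libraries (SD, n = 4 each, log2 fold change -0.47, edgeR adjusted p = 0.176). Sema4a averaged 137 ± 18.3 CPM over WT and 105 ± 8.94 CPM over Gsdmd-/- libraries (SD, n = 4 each, log2 fold change -0.38, edgeR adjusted p = 0.216). The genotypes did not overlap for these 2 of the 9 genes tested, against 7.60% of all genes, whose median log2 fold change was -0.01. Without WT 2 and WT 3 the edgeR adjusted p of Sema4a was 0.0388 (log2 fold change -0.54).

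Of 23 genes for other angiogenic ligands and receptors, 11 were tested, and 27.3% of these were at the fold cutoff against 4.83% of all genes. Hgf, the ligand of the receptor Met, was higher at the fold cutoff (log2 fold change 0.51, edgeR adjusted p = 0.325), with 0.34 without WT 4 and 0.77 without WT 2 and WT 3. Pdgfb, a platelet-derived growth factor chain, and Tymp, thymidine phosphorylase, were lower (log2 fold changes of -0.57 and -0.61, edgeR adjusted p = 0.303 and 0.396). The genotypes overlapped for all 3, and the median of the list was -0.05. The receptor kinase Kit, a relative of the VEGF receptors, had a log2 fold change of 0.59 (edgeR adjusted p = 0.720), and Csf1r one of -0.15 (edgeR adjusted p = 0.687). Leaving out 1 WT library moved Kit to between 0.27 and 1.08, and leaving out WT 2 and WT 3 turned it to -0.19 and moved Csf1r to -0.35.

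Markers of other cells were low or overlapped between the genotypes in summed level. Stromal markers summed to between 4.02 and 9.64 CPM, neutrophil markers to between 4.63 and 6.98 CPM, mast cell markers to between 0.317 and 1.70 CPM and lymphoid markers to between 0 and 1.10 CPM over the 8 libraries. Megakaryocyte markers summed to between 11.3 and 35.2 CPM and dendritic markers to between 16.6 and 51.9 CPM. Of the dendritic markers, Clec9a was lower in Gsdmd-/- libraries at the fold cutoff (log2 fold change -0.95). It was at 17.0, 49.1, 45.3 and 17.6 CPM in WT libraries 1 to 4 and between 14.5 and 18.3 CPM in Gsdmd-/- libraries, so that the difference lay in WT 2 and WT 3, and without them the log2 fold change was -0.06. Lymphatic markers summed to between 297 and 383 CPM, nearly all of it from Pdpn.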
